A study of Homo sapiens with 26 samples.

Results

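The 4 genes described here are MYC, its paralogs MYCL and MYCN, and MAX, the partner that all 3 need. They were chosen by name as the core of the MYC transcription factor network, and each was found under its own symbol in every table, among 19128 genes in the knockout tables and 19117 in the parental table. All samples were small cell lung cancer (SCLC) cell lines, profiled by RNA-seq of polyadenylated RNA.

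MYC, MYCL and MYCN are basic helix-loop-helix leucine zipper proteins that bind E-box sites in DNA as a dimer with MAX and drive genes for ribosome production, nucleotide synthesis, metabolism and cell division. MAX also pairs with the MXD proteins, MNT and MGA, which occupy the same sites and oppose MYC. In small cell lung cancer each of the 3 paralogs is known to be amplified in some tumours, usually not together.

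The knockout groups were COR-L311 and NCI-H526, collected on day 5 after lentiviral infection, and NCI-H1048 and NCI-H211, collected on day 4. The arms of each line were sgNeg, a control guide, and 2 guides directed at POU2F3, named sgPOU2F3e10.1 and sgPOU2F3e10.2. POU2F3 is the transcription factor of tuft cells, and lines that express it form a recognised subtype of this cancer. The 12 knockout libraries are represented by 8 columns of values, because the deposited sgPOU2F3 column holds both guides combined, so no spread between guides was available and the line was the replicate (n = 4 lines). The other 14 libraries were untreated parental lines in exponential growth, 1 library per line: the same 4 lines, and DMS114, DMS79, NCI-H128, NCI-H146, NCI-H446, NCI-H510, NCI-H524, NCI-H69, NCI-H82 and NCI-H889. The labels give different culture media for some lines, and NCI-H1048 and NCI-H128 each had a medium of their own.

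Values are FPKM, fragments per kilobase of transcript per mega of mapped fragments, so levels of different genes can be compared per length. Depth was not given and was estimated from the smallest steps in the values, at 9.5 to 30.9 M fragments (M, mega) in the parental columns, 8.9 to 14.4 M in sgNeg and 17.8 to 28.8 M in sgPOU2F3. The targeted gene, POU2F3, had 501 FPKM with sgNeg and 204 with sgPOU2F3 in NCI-H526, 307 and 21.3 in NCI-H211, 272 and 218 in COR-L311, and 198 and 60.8 in NCI-H1048. It was therefore lower with the guides in 4 of 4 lines, and its RNA remained highest in COR-L311, at 80.4% of sgNeg. Its mean log2 ratio was -1.77 ± 0.51 (SE; limma adjusted p = 0.40), so the targeted gene itself did not pass the threshold used below for the members. Markers of blood and endothelial cells were low in all parental columns, with the exception of CDH5 at 63.8 FPKM in NCI-H446. Of 12 markers of other cell types, NCI-H446 had the most at 1 FPKM or more, 6. Among these were COL1A2 at 13.3 FPKM and PDGFRB at 6.47 FPKM. In DMS114 4 reached that level, among them COL3A1 at 512 FPKM and DCN at 89.1 FPKM. In NCI-H69 2 did, one of them COL1A2 at 45.6 FPKM, and in NCI-H889 1 did, COL1A2 at 32.1 FPKM. COL1A1 was at most 10.7 FPKM, in NCI-H510, so neither DMS114 nor NCI-H69 had the fibroblast genes as a set. The neuroendocrine markers were present at 1 FPKM or more for 10 of 10 genes in 6 parental lines and for 3 of 10 in NCI-H1048 and NCI-H211.

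The first question was which MYC paralog each parental line carried. Nearly every line had a single dominant paralog. MYC was the highest of the 3 in 8 lines, MYCL in 3 and MYCN in 3, and in 13 of 14 lines the highest paralog made up over 90% of the summed FPKM of the 3. The exception was DMS79, where MYCN held 64.3% and MYCL 26.1% of a sum of 38.9 FPKM.

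**Figure D1:**
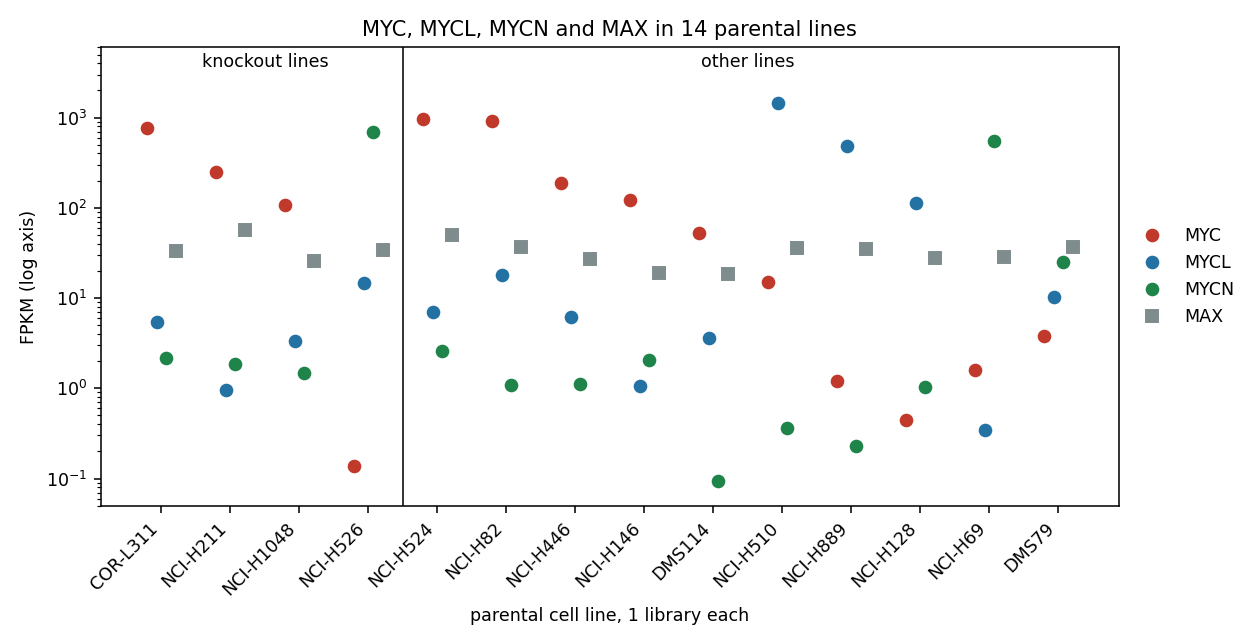
FPKM on a log axis for MYC, MYCL, MYCN (circles) and MAX (squares) in the 14 parental lines, 1 library and so 1 point per gene and line, with the 4 knockout lines left of the vertical line and the 10 others right of it. A single paralog lies far above the other two in every line except DMS79, while MAX stays between 18.7 and 57.4 FPKM.

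MYC, the paralog with the broadest known role in growth control, was highest in NCI-H524 at 958 FPKM, NCI-H82 at 925 and COR-L311 at 767. These 3 lines did not differ by more than the difference between 2 cultures of 1 line, which for MYC reached 0.83 on the log2 scale when each knockout line's parental column was set against its own sgNeg column. That yardstick includes the infection and the separate normalization of the tables. The next group was NCI-H211 at 249 FPKM, NCI-H446 at 189, NCI-H146 at 121 and NCI-H1048 at 109, and DMS114 followed at 52.4. Between COR-L311 and NCI-H211 the gap was 1.62 on the log2 scale, larger than the yardstick. Inside this second group no step between neighbouring lines exceeded it. Its ends, NCI-H211 at 7.97 and NCI-H1048 at 6.78 as log2(FPKM + 1), did differ by more than the yardstick. The remaining lines held little MYC: 14.9 FPKM in NCI-H510, 3.76 in DMS79, 1.58 in NCI-H69, 1.21 in NCI-H889, 0.451 in NCI-H128 and 0.138 in NCI-H526. MYC thus spanned from rank 41 among all genes in NCI-H524 to rank 14002 in NCI-H526, which had an estimated 9.4 fragments on the gene. Of the 13 gaps between neighbouring lines in the order of MYC levels, 5 exceeded the yardstick.

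MYCL, named for its discovery in lung cancer, was dominant in NCI-H510 at 1455 FPKM, NCI-H889 at 489 and NCI-H128 at 112. Each of these 3 lines was separated from the next by more than 1.25, the largest own-line difference for MYCL on the log2 scale. In NCI-H510 MYCL was the 10th most abundant transcript per length. The other 11 lines lay between 0.342 FPKM in NCI-H69 and 18.2 FPKM in NCI-H82. No step between neighbouring lines among them exceeded that difference. The ends of this range did, at 0.42 and 4.26 as log2(FPKM + 1). NCI-H526, a MYCN line, had 14.7 FPKM of MYCL, above its MYC level of 0.138 FPKM.

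MYCN, the paralog best known from neuroblastoma, was high in NCI-H526 at 694 FPKM and NCI-H69 at 550 FPKM, and these 2 did not differ beyond the own-line difference of 1.01. DMS79 came next at 25.0 FPKM, and its gap to each side exceeded that difference, at 4.41 above and 2.86 below on the log2 scale. In the other 11 lines MYCN ran from 0.0931 FPKM in DMS114 to 2.57 FPKM in NCI-H524. In MYCN the 4 knockout lines were therefore not alike: NCI-H526 had 694 FPKM and COR-L311, NCI-H1048 and NCI-H211 had 2.19, 1.49 and 1.86 FPKM.

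MAX, the common partner, varied far less than the paralogs. It ranged 3.07-fold over the 14 lines, from 18.7 FPKM in DMS114 and 18.8 in NCI-H146 to 50.6 in NCI-H524 and 57.4 in NCI-H211, with a median of 33.8. By the same measure MYC ranged 6956-fold, MYCL 4250-fold and MYCN 7453-fold. In 13 of 14 lines the dominant paralog was more abundant than MAX per length, and in DMS79 MAX, at 37.1 FPKM, exceeded all 3. Across the 14 libraries the log2 level of MAX had a Pearson r of 0.16 with MYC, 0.16 with MYCL and 0.08 with MYCN. Between paralogs r was -0.39 for MYC and MYCL, -0.50 for MYC and MYCN and -0.32 for MYCL and MYCN, and all of these are descriptions over libraries that differ in line, depth and culture.

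The paralogs were then set beside NEUROD1, POU2F3 and YAP1, regulators whose levels mark recognised subtypes of this cancer. The 3 lines with NEUROD1 above 100 FPKM, NCI-H446, NCI-H82 and NCI-H524, all had MYC as the dominant paralog, at 189, 925 and 958 FPKM. The 4 lines with POU2F3 above 100 FPKM were the knockout lines, and NCI-H526 differed from the other 3 in its paralog. DMS114, the line with the most YAP1 at 33.7 FPKM, carried MYC at 52.4 FPKM. No test was made of these groups, which were read from the same values.

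Whether the members differed between the 4 knockout lines and the 10 other parental lines was tested with limma on log2(FPKM + 1) over all genes with at least 1 FPKM in at least 4 columns. None of the 4 members passed an adjusted p of 0.05, a level that 33 of 13226 genes tested (0.25%) reached, and none had an unadjusted p under 0.05, as 8.66% of all genes did. MYC was higher by 1.2 ± 1.90 (SE) in the knockout lines (limma adjusted p = 0.91), MYCL lower with a difference of -1.91 ± 1.52 (adjusted p = 0.78), MYCN higher by 1.36 ± 1.61 (adjusted p = 0.87) and MAX higher by 0.24 ± 0.28 (adjusted p = 0.87). The groups overlapped for all 4 genes. The MYCN direction rested on NCI-H526, since without that line the difference was -0.63, and the MYC difference was 0.05 without COR-L311 and 3.18 without NCI-H526.

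The sum of MYC, MYCL and MYCN was much more even than any paralog alone. It ran from 38.9 FPKM in DMS79 to 1470 in NCI-H510. In the knockout lines it was 775 FPKM in COR-L311, 709 in NCI-H526, 252 in NCI-H211 and 114 in NCI-H1048, within the range of the other lines. The mean of log2(sum + 1) was 8.47 ± 1.31 (SD, n = 4) in the knockout lines and 8.10 ± 1.83 (SD, n = 10) in the others, a difference of 0.38 with a two-sided exact permutation p of 0.716 over all relabelings of the lines. Without COR-L311 the difference was 0.000162 and without NCI-H1048 it was 0.92.

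Because these genes are known to be amplified together with their neighbours, the levels of nearby genes were read in chromosome order for MYCL, MYCN and MYC. In GENCODE release 29, on the GRCh38 build, MYC lies on chromosome 8 at 127735434 to 127741434, MYCL on the minus strand of chromosome 1 at 39895426 to 39902256, and MYCN on chromosome 2 at 15940564 to 15947007. MAX lies on the minus strand of chromosome 14 at 65006174 to 65102695. The deposited tables give no coordinates and use hg19, so the newer annotation served only for location and gene order. The 12 protein-coding genes on each side of a member were compared with their own median over the 14 lines, and those at least 4-fold above it on the log2(FPKM + 1) scale were counted. DNA copy number was not measured.

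Around MYCL, NCI-H510 had 12 of 24 neighbours at least 4-fold above their median and NCI-H889 had 7 of 24, against 0 in NCI-H128, the third MYCL line, and 0 or 1 in each of the other 11. Over all 19117 genes the share this far above the median was 3.19% in NCI-H510, 2.98% in NCI-H889 and 1.44% in NCI-H128. TRIT1, the adjacent gene, which modifies transfer RNA, was at 1103 FPKM in NCI-H889, 700 in NCI-H510 and 87.6 in NCI-H128. In the other 11 lines it lay between 9.88 and 34.9 FPKM, so these 3 lines stood above all others in TRIT1 as in MYCL. PPIE, a cyclophilin of the spliceosome, was at 1389 FPKM in NCI-H889 and 1297 in NCI-H510, with the other lines from 23.4 to 77.5. OXCT2, a ketone-body enzyme usually limited to testis, was at 26.9 and 47.1 FPKM in these lines and at most 0.803 elsewhere. The high genes lay mainly on 1 side of MYCL, reaching AKIRIN1, 12 genes away, at 954 FPKM in NCI-H889 and 394 in NCI-H510. NDUFS5, a subunit of mitochondrial complex I next to AKIRIN1, was at 12984 FPKM in NCI-H889. Within this block the 2 lines were not alike: the cytoskeletal linker MACF1 was at 196 FPKM in NCI-H510 and at 32.1 in NCI-H889, where the other lines had 9.47 to 54.9, and HEYL, a Notch target, was at 90.3 FPKM in NCI-H510 and 14.9 in NCI-H889.

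Around MYCN, NCI-H526 and NCI-H69 differed although their MYCN levels did not. In NCI-H526, DDX1, an RNA helicase next to MYCN, was at 2617 FPKM, and NBAS, a gene of vesicle traffic beyond it, was at 214 FPKM. In NCI-H69 the same genes were at 57.2 and 3.96 FPKM, within the range of the remaining lines, 53.4 to 227 for DDX1 and 2.48 to 12.7 for NBAS. NCI-H526 had 4 of 24 neighbours at least 4-fold above their median, namely NBAS, DDX1, FAM49A and VSNL1, and NCI-H69 had 0 of 24. The share over all genes was 2.84% and 3.43% in these lines. NCI-H510, with 0.359 FPKM of MYCN, also had 4 (KCNF1, TRIB2, FAM84A and KCNS3). COR-L311, DMS79 and NCI-H889 had 2 each, and DMS114 was among the lines with 1, where the shares over all genes were 2.8% in COR-L311, 4.44% in DMS79 and 3.13% in DMS114. FAM49A, a regulator of actin dynamics on the other side of MYCN, was also high where MYCN was low, at 49.8 FPKM in COR-L311. The 3 neighbour lists had 9 members tested around MYC, 16 around MYCL and 10 around MYCN. FAM49A was the only one past the limma threshold between the 4 knockout lines and the others, which 0.25% of all genes passed. Its difference was 3.31 ± 0.61 (limma adjusted p = 0.027). Its lowest value in a knockout line was 5.52 FPKM and its highest elsewhere 6.0, so the groups overlapped, and the call was lost without COR-L311 (adjusted p = 0.15), without NCI-H526 (adjusted p = 0.13) and, narrowly, without NCI-H128, NCI-H446, NCI-H524 or NCI-H889 (adjusted p of 0.051 to 0.052).

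Around MYC, the 3 lines with the most MYC, NCI-H524, NCI-H82 and COR-L311, each had 0 of the 23 neighbours with a value at least 4-fold above the median, where the shares of all genes were 2.47%, 2.06% and 2.8%. The highest count was in NCI-H211, next after them by MYC level, with 4 of 23: TATDN1, MTSS1, FAM84B and EFR3A, beside 2.01% of all genes in that line. NCI-H446, NCI-H146, NCI-H1048 and NCI-H526 had 1 each, beside 2.79%, 3.36%, 2.33% and 2.84% of all genes. Of the genes named around MYC, NCI-H211 had 148 FPKM of FAM84B, 130 of FAM49B, 110 of MTSS1 and 162 of SQLE, an enzyme of cholesterol synthesis. Over the 14 lines, MYC had a Pearson r of -0.14 with FAM84B and 0.02 with FAM49B, whereas MYCL had an r of 0.93 with TRIT1, the highest of 13225 genes compared. For MYCN and DDX1 r was 0.54 and Spearman's rho 0.08.

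**Figure D2:**
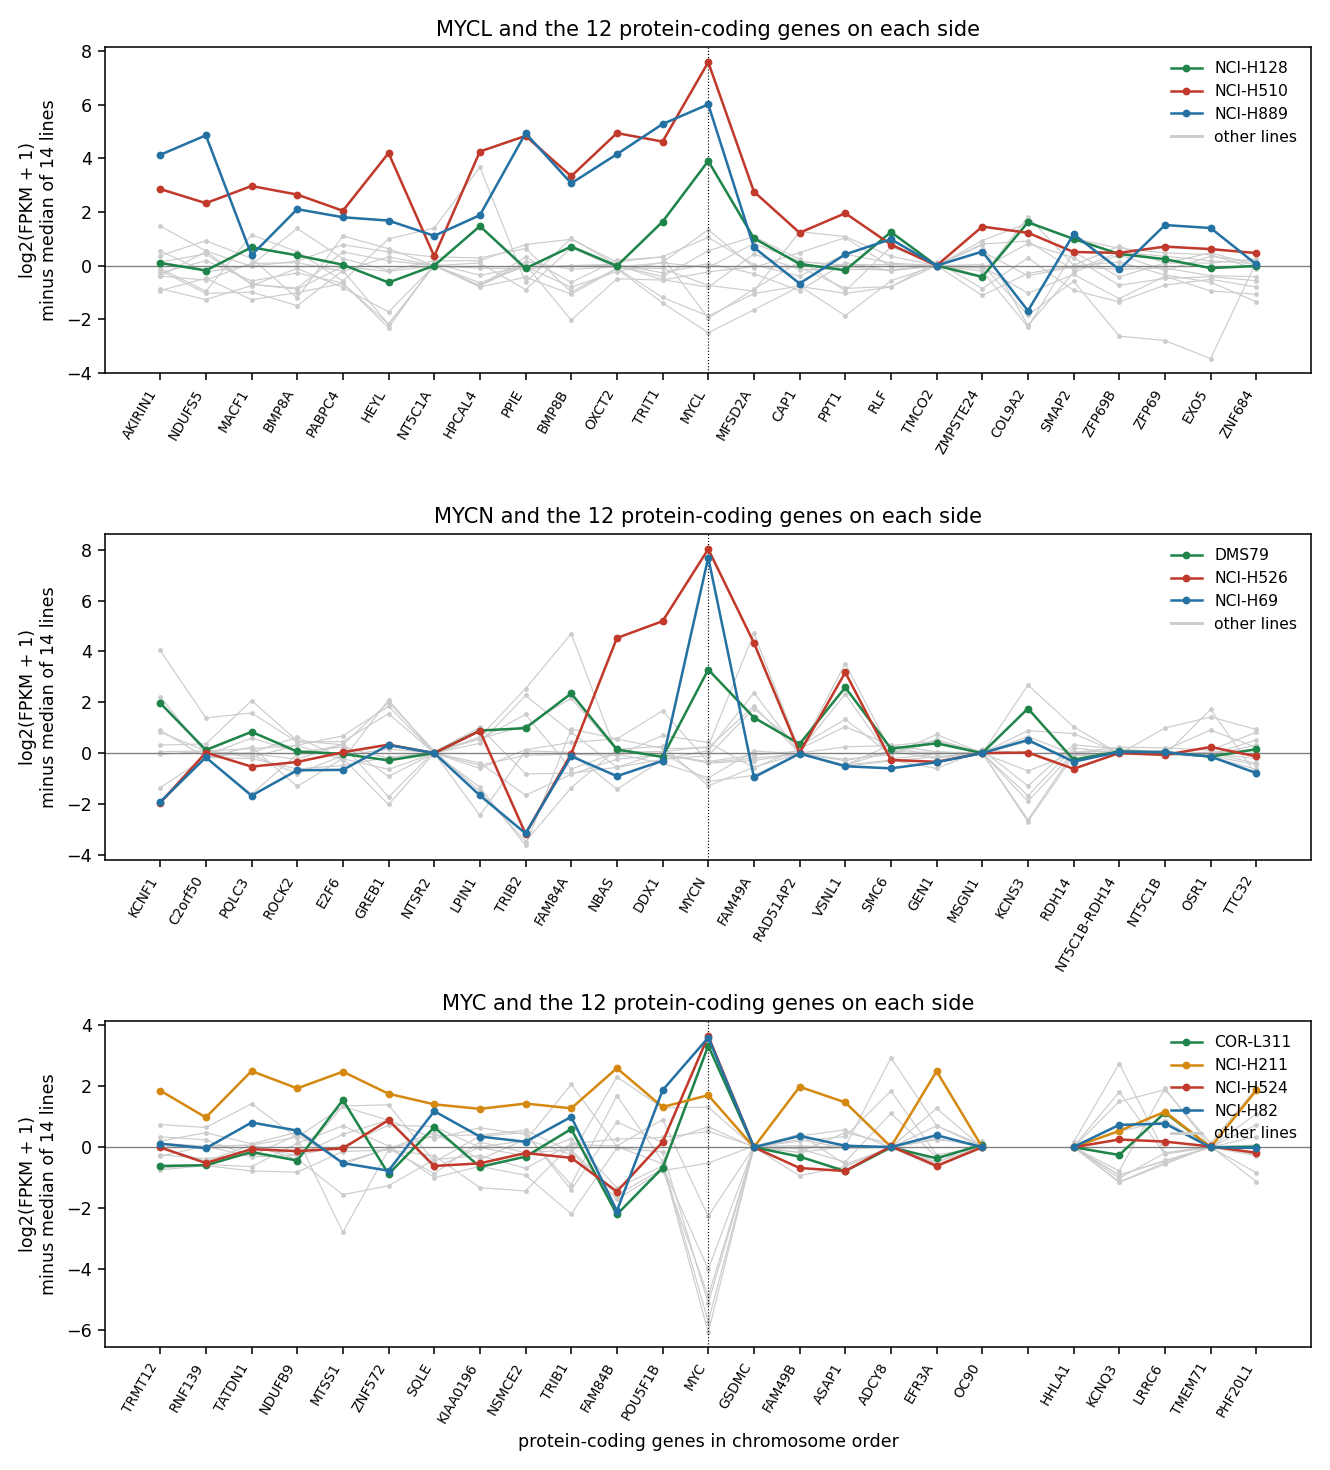
Level of each gene in each of the 14 parental lines as log2(FPKM + 1) minus the gene's median over the lines, for MYCL, MYCN and MYC and the 12 protein-coding genes on each side in chromosome order, 1 trace per line, with the lines named in each key coloured and the others grey. A block of neighbours is high with MYCL in NCI-H510 and NCI-H889, a few genes are high with MYCN in NCI-H526 but not in NCI-H69, and the 3 lines highest in MYC show no such block.

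The genes whose levels most resembled each member over the 14 parental libraries were ranked by Pearson r of log2(FPKM + 1). For MYC they were MYBBP1A (r = 0.86), PSEN2 (0.85), DHX33 (0.84), C10orf2 (0.83) and PLCG1 (0.82), with Spearman's rho of 0.82 to 0.89. MYBBP1A, a nucleolar protein, went from 11.4 to 93.2 FPKM over the lines. For MYCL they were TRIT1 (0.93), NRN1L (0.86), NMNAT1 (0.85), PPIE (0.84) and CHST11 (0.83), and TRIT1, NMNAT1 and PPIE are on chromosome 1 with MYCL, which holds 10.1% of the genes compared. For MYCN, CA14 (0.94), MPPED2 (0.87), NCAPD3 (0.85) and CRHR2 (0.85) were among the highest 5, with rho between 0.63 and 0.70. For MAX they were ISCA2 (0.85), FCF1 (0.83), GLRX5 (0.82), KIAA0586 (0.81) and ANGEL1 (0.80), all 5 on chromosome 14 with MAX, a chromosome that holds 3.38% of the genes compared. These are descriptions over 14 lines, chosen as the highest of all genes compared.

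The knockout experiment asked what changes when POU2F3 is lost in lines that express it. In every line the dominant paralog was lower with the POU2F3 guides: MYC in COR-L311, NCI-H1048 and NCI-H211, and MYCN in NCI-H526. The same paralog was dominant in the parental, sgNeg and sgPOU2F3 columns of each line, with at least 92.3% of the sum. The mean log2 ratio of the dominant paralog was -0.85 ± 0.50 (SD, n = 4 lines). In bulk RNA, fewer cells with the transcript and less of it per cell cannot be told apart.

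**Figure D3:**
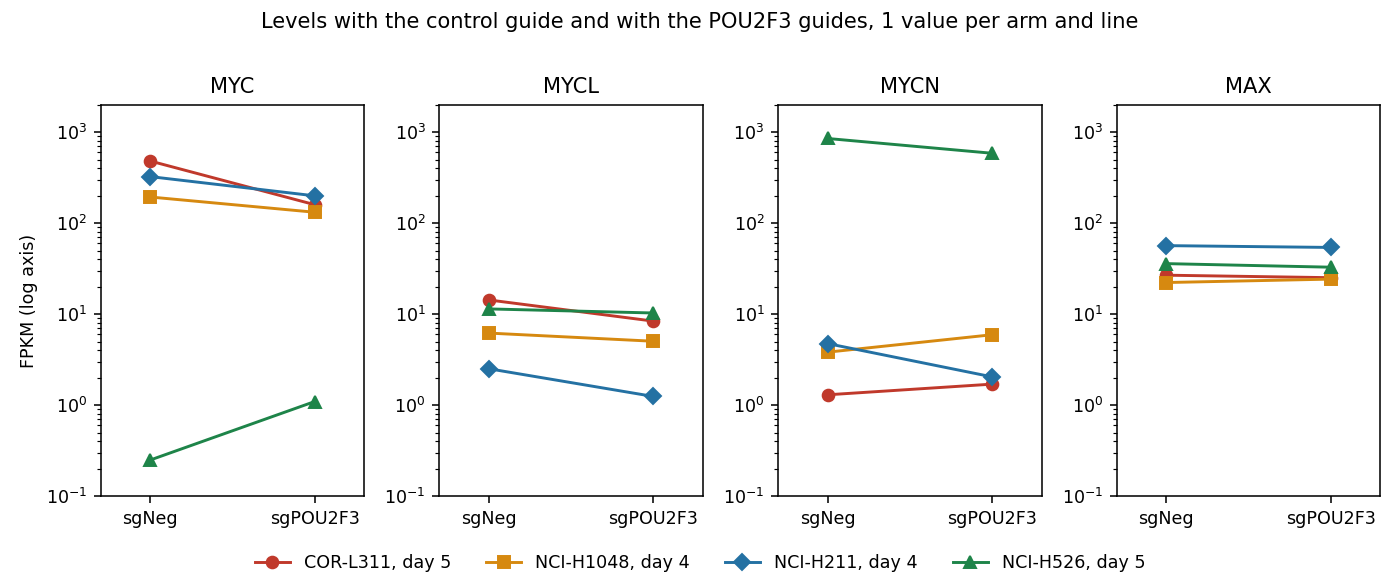
FPKM on a log axis with the control guide (sgNeg) and with the combined POU2F3 guides (sgPOU2F3) for MYC, MYCL, MYCN and MAX, 1 trace per line and 1 value per arm. The traces above 100 FPKM, MYC in 3 lines and MYCN in NCI-H526, all end lower on the right, while the MAX traces are nearly level.

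MYC went from 484 to 160 FPKM in COR-L311, 33.1% of its control value. In that line only 13 of 12387 tested genes, MYC included, had a log2 ratio at or below that of MYC, -1.59. NCI-H211 had 326 FPKM of MYC with sgNeg and 200 with the guides (61.5%), and NCI-H1048 had 194 and 132 (68.0%). Ratios that low were more common there, held by 1068 of 12387 genes in NCI-H211 and 353 in NCI-H1048, MYC included. In NCI-H526, which makes almost no MYC, it went from 0.249 to 1.10 FPKM, an estimated 8.5 and 74.8 fragments. The change in COR-L311 was larger than the difference between its own parental and sgNeg columns, 767 and 484 FPKM or 0.66 on the log2 scale. The same held in NCI-H211, where the parental and sgNeg columns had 249 and 326 FPKM. In NCI-H1048 it was smaller than that difference, since the parental column had 109 FPKM, below both arms of the knockout. Over the 4 lines limma gave a mean of -0.52 ± 0.34 (SE; adjusted p = 0.57), with MYC lower in 3 of 4 lines, and it was -0.95 without NCI-H526 and -0.17 without COR-L311.

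MYCL was low in all 4 knockout lines and was lower with the guides in 4 of 4. Its control and knockout levels were 14.3 and 8.39 FPKM in COR-L311, 11.4 and 10.3 in NCI-H526, 6.20 and 5.04 in NCI-H1048, and 2.51 and 1.25 in NCI-H211. The mean was -0.44 ± 0.15 (SE), and of the 4 members it alone had an unadjusted limma p under 0.05 (p = 0.023, adjusted p = 0.40), as did 11.8% of all genes tested. Its parental column differed from sgNeg by up to 1.25 on the log2 scale, more than any of these 4 ratios.

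MYCN went from 855 to 588 FPKM in NCI-H526, 68.8% of the control, and 376 of 12387 genes had a ratio as low. Elsewhere its level was small and its direction mixed: 4.75 and 2.05 FPKM in NCI-H211, 3.83 and 5.95 in NCI-H1048, and 1.3 and 1.70 in COR-L311. The mean over lines was -0.17 ± 0.25 (SE; limma adjusted p = 0.79), and it was 0.07 without NCI-H211. The MYCN neighbours that were high in NCI-H526 were lower there as well, DDX1 at 1339 and 1182 FPKM and NBAS at 178 and 115. Their log2 ratios were -0.18 for DDX1, -0.62 for NBAS, -0.19 for FAM49A and -0.26 for VSNL1, beside -0.54 for MYCN. In that line 53.4% of all genes were below 0. The parental column of NCI-H526 had 2617 FPKM of DDX1 and 12.2 of VSNL1, against 1339 and 7.81 with sgNeg. Both thus differed more between these columns than between the arms. NBAS, at 214 and 178 FPKM, and FAM49A, at 38.1 and 40.9, differed less. MYCN overlaps MYCNOS on the other strand, and the strand setting of the authors' counting is not given in the sources used here, so reads of the pair cannot be told apart.

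MAX was nearly level, at 56.8 and 54.2 FPKM in NCI-H211, 36.0 and 32.9 in NCI-H526, 26.9 and 25.2 in COR-L311, and 22.3 and 24.3 in NCI-H1048. The log2 ratios lay between -0.13 and 0.12, with a mean of -0.04 ± 0.09 (SE; limma adjusted p = 0.88) that was 0.02 after quantile normalization. MAX overlaps FNTB and CHURC1-FNTB on the other strand and MYCL overlaps AL033527.2, where the same limit on strand applies.

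None of the 4 members passed the limma threshold in the knockout, which 2 of 12387 genes (0.0161%) passed. Within single lines, 1 of the 16 ratios of members was 2-fold or more in size on the log2(FPKM + 1) scale, that of MYC in COR-L311; on FPKM itself the low levels of MYC in NCI-H526 and of MYCL and MYCN in NCI-H211 also differed by that much. Over all genes the share at 2-fold or more in either direction was 9.13% in NCI-H211, 4.73% in COR-L311, 1.78% in NCI-H526 and 1.55% in NCI-H1048. With 1 value per arm, the single-line ratios have no replicate check.

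The sum of the 3 paralogs followed the dominant gene. With sgNeg and then with the guides it was 867 and 599 FPKM in NCI-H526, 499.5 and 170 in COR-L311, 333 and 204 in NCI-H211, and 204 and 143 in NCI-H1048. All 4 log2 ratios were below 0, at -0.53, -1.55, -0.71 and -0.51, with a mean of -0.82 ± 0.49 (SD, n = 4 lines). A two-sided exact sign-flip permutation test gave p = 0.13, the smallest value that 4 lines allow. Without COR-L311 the mean was -0.58. POU2F3 RNA and the paralog sum did not share an order: COR-L311 kept the most POU2F3, 80.4%, and the least of the sum, 34%, while NCI-H211 kept 6.95% of POU2F3 and 61.1% of the sum. RNA of a gene cut by a guide can persist, and the edited share of cells was not measured.

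The wider MYC network was described through lists drawn from general knowledge, of 127 distinct genes in all. None of the 122 tested in the knockout, and none of the 124 tested between parental groups, passed the limma threshold, beside 0.0161% and 0.25% of all genes. The list of genes bound by MYC that serve growth, such as ribosome assembly, nucleotide synthesis and glycolysis, had 63 of 64 members tested in the knockout. Of these, 60 had a mean log2 ratio below 0, against 53.2% of all genes tested, the median was -0.23 against -0.02 for all genes, and 15 had an unadjusted p under 0.05, a level reached by 11.8% of all genes tested. The lines were unequal. In COR-L311 59 of 63 were below 0 with a median of -0.50, in NCI-H526 50 with a median of -0.16, in NCI-H211 48 with a median of -0.22, and in NCI-H1048 31 with a median of 0.00252. Over all genes the share below 0 was 51.6%, 53.4%, 53.4% and 50.4% in the same order. In 4 of 4 lines 21 of the 63 were lower, as were 12.9% of all genes. Without COR-L311 the median of the list was -0.13, with 50 of 62 below 0. Their dependence on MYC was not tested.

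HK2, the hexokinase that starts glycolysis in many tumours, had the smallest p of this list. Its control and knockout levels were 26.0 and 12.7 FPKM in NCI-H211, 17.3 and 8.41 in NCI-H526, 14.3 and 5.67 in COR-L311, and 11.2 and 6.89 in NCI-H1048, a mean log2 ratio of -0.94 ± 0.13 (SE; limma adjusted p = 0.23). HK2 was thus lower in all 4 lines, also in NCI-H1048, where the list as a whole was level. The dominant paralog was lower in each of these lines too, MYCN in NCI-H526 and MYC in the others. Whether HK2 depends on a paralog was not tested. TFAP4, a transcription factor, and DKC1, which modifies ribosomal RNA, had means of -0.50 and -0.33 (limma adjusted p = 0.40 for both), each lower in 4 of 4 lines. MYBBP1A, the gene most like MYC across the parental lines, had 38.5 and 13.97 FPKM in COR-L311, 28.8 and 31.1 in NCI-H211, 18.2 and 19.5 in NCI-H1048, and 14.2 and 13.0 in NCI-H526. MYBBP1A was thus clearly lower only in COR-L311, where MYC had its lowest ratio. It was slightly higher in NCI-H211 and NCI-H1048, where MYC was lower as well, and a link to MYC was not tested. TERT, the catalytic subunit of telomerase, had the lowest ratio of the network in COR-L311, from 40.2 to 10.6 FPKM.

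**Figure D4:**
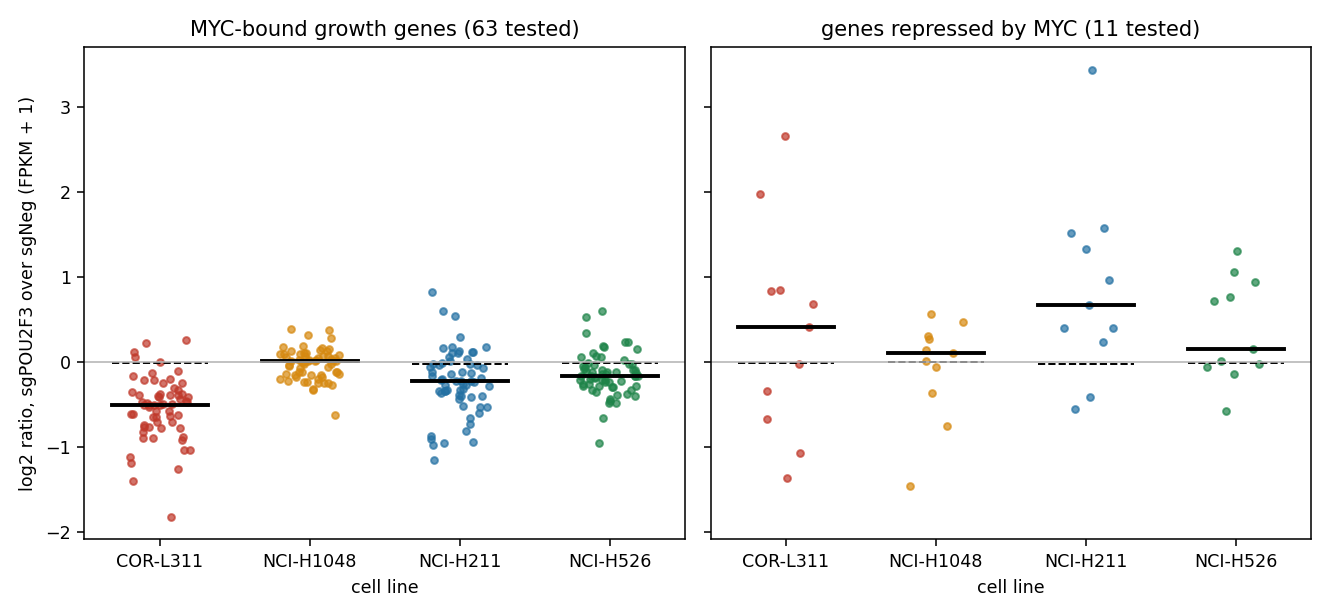
Log2 ratio of sgPOU2F3 over sgNeg (FPKM + 1) in each of the 4 lines for the tested MYC-bound growth genes (left) and genes repressed by MYC (right), 1 point per gene, with the list's median as a solid bar and the median of all tested genes as a dashed bar. The growth genes lie below the dashed bar most clearly in COR-L311 and sit around it in NCI-H1048.

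Genes that MYC is known to repress had 11 of 15 members tested, with 8 above 0, a median of 0.25 and 2 with an unadjusted p under 0.05 (11.8% of all genes). NDRG1, a stress-induced gene, had control and knockout levels of 12.8 and 38.4 FPKM in NCI-H211, 11.2 and 47.1 in COR-L311, 8.69 and 22.8 in NCI-H526, and 7.81 and 8.49 in NCI-H1048, a mean of 1.22 ± 0.29 (SE; limma adjusted p = 0.39). CDKN1A, the cyclin-dependent kinase inhibitor p21, had 74.3 and 155 FPKM in NCI-H526, 54.5 and 59.9 in NCI-H1048, 4.25 and 7.31 in NCI-H211, and 2.73 and 22.4 in COR-L311 (mean 1.13 ± 0.38; adjusted p = 0.40). Both were higher in 4 of 4 lines, by least in NCI-H1048. NDRG2 went the other way, with a mean of -0.47 ± 0.25 (SE; limma adjusted p = 0.49). Its log2 ratio was -1.36 in COR-L311, -0.56 in NCI-H211 and 0.01 in both NCI-H1048 and NCI-H526. CDKN2B had the highest ratio of the network in NCI-H211, from 0.525 to 15.5 FPKM, and TXNIP the lowest ratio in NCI-H1048, from 32.4 to 11.1 FPKM, where the other 3 lines had more TXNIP with the guides.

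A list of MAX, its partners and antagonists, and the related genes MLX, MLXIP and MLXIPL, 10 genes in all, had 6 below 0 and a median of -0.03. MXD4, an antagonist, was higher in 4 of 4 lines, with 34.6 and 39.6 FPKM in COR-L311, 25.1 and 36.8 in NCI-H526, 25.0 and 37.3 in NCI-H1048, and 12.1 and 13.6 in NCI-H211 (mean 0.36 ± 0.11; limma adjusted p = 0.40). MXI1, another antagonist, was lower in 4 of 4, with a mean of -0.28 ± 0.10 (adjusted p = 0.41), and MXD3 had the lowest ratio of the network in NCI-H211, from 15.4 to 4.59 FPKM. The antagonists therefore did not move in 1 direction. In total 2 of the 10 had an unadjusted p under 0.05, beside 11.8% of all genes.

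Among 20 genes that control turnover of the MYC proteins, 13 were below 0, the median was -0.09 and 4 had an unadjusted p under 0.05 (11.8% of all genes). AURKA, a mitotic kinase that shields MYCN from degradation, was lower in 4 of 4 lines, with a mean of -0.66 ± 0.12 (SE; limma adjusted p = 0.31). In NCI-H526, the MYCN line, it went from 63.5 to 46.3 FPKM. PLK1, also a mitotic kinase, had a mean of -0.70 ± 0.17 (adjusted p = 0.39). FBXW7, the ubiquitin ligase that marks MYC and MYCN for degradation, was higher in 4 of 4 lines, with a mean of 0.46 ± 0.13 (adjusted p = 0.39), and in NCI-H211 it went from 41.7 to 69.6 FPKM. Protein levels were not measured. The 18 cofactors, among them histone acetyltransferases and the RUVBL helicases, had 8 below 0, a median of 0.02 and 3 with an unadjusted p under 0.05, near the 11.8% of all genes. RUVBL1 had a mean of -0.42 ± 0.15 (adjusted p = 0.41) and was lower in 3 of 4 lines, with a log2 ratio of 0.07 in NCI-H1048.

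Between the parental groups the same lists had medians of 0.12 for growth genes and 0.44 for repressed genes, against 0.00 for all genes. The list with MAX and the MLX genes had 0.04, turnover -0.03 and cofactors -0.02. In the same order 2 of 63, 2 of 13, 0 of 10, 2 of 20 and 2 of 18 members had an unadjusted p under 0.05, beside 8.66% of all genes.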

How the data were processed

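The 26 libraries are described by 5 deposited tables, 4 with a knockout line each and 1 with the 14 parental lines. The values are FPKM, made by the authors; TopHat2, Cufflinks, Cuffdiff and the build hg19 are named in the submitters' processing notes, without versions, roles or an annotation. How the 2 guide libraries were combined in the sgPOU2F3 columns is not given in the sources used here. All columns of all tables were used, grouped by the labels. Log2(FPKM + 1) was tested with limma 3.58.1 in R 4.3.3 (variance trend, Benjamini-Hochberg adjustment) on genes with at least 1 FPKM in at least 4 columns. The knockout fit had a term for the line, and ratios stayed within a table. The pseudocount of 1 makes changes of low genes look smaller. The paralog sum was tested by exact permutation over lines. Both fits were tested on simulated data, with a spread that was set the same for all genes and not taken from these columns, so this says nothing of the power in the real data. Fragments were estimated from steps in FPKM times length for genes with 1 transcript in GENCODE release 29.

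Nothing in the labels says how separate the libraries of a line are, and each parental line is 1 library, so p-values measure the spread between lines. In the limma fits each gene's spread is drawn toward that of other genes of similar level. Where lines disagree, the SE given can therefore be smaller than the gene's own spread would make it. For MYC in the knockout the SE was 0.34, while its log2 ratios had an SD of 0.96 over 4 lines. Parental and knockout tables were normalized separately; they are compared only to show how far 2 columns of 1 line differ. The members and lists were chosen with earlier results of these data known. Named genes are the members in every column, POU2F3, NEUROD1 and YAP1, up to 4 genes per list with the smallest p in each fit, the highest and lowest ratio of a list gene in each knockout line, neighbours of the 3 paralogs, and the 5 genes most like each member. A Y-linked gene among the latter is not shown, and some genes that the rule names are not reported here. Alternatives were another pseudocount, no filter or a filter at 5 FPKM, quantile normalization, median centring, no variance trend, no line term, scaling to equal totals, the highest paralog in place of the sum, and leaving out each line. CASC11, PVT1, MYCLP1, MYCNOS and MYCNUT were not analysed here.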

Additional observations from a re-analysis of the deposited data

Results flagged for a closer look

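Levels of the 4 members, of 4 of their neighbours and of the paralog sum were checked for a line far from the others in its group. There were 27 groups of values. Chance alone marks about 1 in 20 where values are normally distributed, which need not hold for these levels. The 4 neighbours were TRIT1, PPIE, DDX1 and NBAS, described above as high in NCI-H510, NCI-H889 or NCI-H526, so marks on them add no support. In the 4 knockout lines, the parental MYCN level of NCI-H526, 694 FPKM, stood apart from the other 3 lines, which had 1.49 to 2.19 FPKM. So did its DDX1 level, 2617 FPKM against 59.1 to 73.9. Among the 10 other lines, NCI-H69 stood apart in MYCN at 550 FPKM and NCI-H82 in DDX1 at 227 FPKM, where the next line, NCI-H524, had 115. NCI-H82 had 1.08 FPKM of MYCN and 12.7 of NBAS. No log2 ratio after knockout was marked for any member, for the sum or for the 4 neighbours, and for no member did both day 4 lines go one way and both day 5 lines the other.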

How the results depend on the processing

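Over 122 alternative fits of the 4 members, none passed the limma threshold (adjusted p of 0.36 to 1.0) and 119 kept their direction. The 3 that turned were MYCN in the knockout without NCI-H211 (0.073), MAX in the knockout with quantile normalization (0.022) and MYCN between parental groups without NCI-H526 (-0.63). MYCN has no value with the filter at 5 FPKM, which it misses. Leaving out a line in turn gave -0.95 to -0.17 for MYC, -0.54 to -0.34 for MYCL, -0.41 to 0.07 for MYCN and -0.09 to -0.01 for MAX in the knockout. Between parental groups it gave 0.05 to 3.18 for MYC, -2.43 to -1.23 for MYCL, -0.63 to 2.13 for MYCN and 0.02 to 0.40 for MAX. The mean ratio of the paralog sum lay between -0.93 and -0.58, and its parental difference between 0.000162 and 0.92. The 2 genes called in the knockout became 0 with a pseudocount of 0.1, without a filter and without the variance trend, 1 with quantile normalization, and 0 to 1 when a line was left out. The 33 genes called between parental groups became 17 to 48. The network lists had 0 genes called in all fits of both comparisons, as did all genes in the knockout without a line term (0), a count added after seeing the data. In the knockout the median of growth genes ran from -0.29 to -0.13 and that of repressed genes from 0.20 to 0.58 when a line was left out. FAM49A lost its call with a pseudocount of 0.1 (adjusted p = 0.079) and without a filter (adjusted p = 0.056). The cause of these shifts was not tested. Levels near 0, such as MYC in NCI-H526, rest on few estimated fragments, and the sgPOU2F3 columns, with both guides, list fewer genes at 0 (13.8% to 15.9%) than sgNeg (18.3% to 21.5%).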
